A study of Homo sapiens with 12 samples.

Results

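The genes that carry glucose to lactate, and the genes that cells switch on when oxygen is low, were followed in HCT116 cells given ammonium chloride, TGF-β, both or neither. They make up a list of 37 genes named by their function, out of 25733 genes in the expression table. The list was drawn up with earlier results of these data known, so it is not blind to them. The rule selects these genes by name alone. By role they are 2 glucose transporters, 18 enzymes of glycolysis, 3 regulators of glycolytic flux, 11 targets of the hypoxia response, and 3 genes for the hypoxia-inducible factor HIF-1α and its oxygen sensors. A mean level of at least 1 FPKM (fragments per kilobase of gene, scaled by a total for each library) over all libraries was needed for testing. Of the 37 genes, 35 reached that level. BNIP3 and LOX stayed below it and are described by their values.

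HCT116 is an established human colorectal cancer line, and every library came from it. RNA was sequenced from 4 groups of 3 libraries, numbered 1 to 3 in each group: cells labelled untreated, cells given 200 pM TGF-β for 1 h, cells given 10 mM NH4Cl for 24 h, and a combined group given NH4Cl first and then TGF-β for 1 h. The labels name no low-oxygen treatment and no change of glucose in any group, and doses and times come from the methods of the study, where controls received vehicle. The libraries held 14807630 to 18191998 reads on genes (median 15484798), with group medians of 16647681 in control, 15073706 with TGF-β, 14956458 with NH4Cl and 15671088 in the combined group.

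Glycolysis splits glucose into pyruvate in a chain of enzymes, and lactate dehydrogenase turns pyruvate into lactate so that the chain can go on without oxygen. When oxygen is scarce, the prolyl hydroxylases EGLN1 and EGLN3 no longer mark HIF-1α for destruction, and the stabilised factor switches on glucose transporters, most glycolytic enzymes and genes for acid balance, vessel growth and collagen modification. Colorectal cancer cells run glycolysis at a high rate also when oxygen is present.

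Replicate 3 stood apart from replicates 1 and 2 in every group, and this bears on every result that follows. Within a group, the chi-square per gene between reads of replicates 1 and 2 was 1.76 to 5.02, against 25.4 to 36.3 between either of them and replicate 3. Mitochondrial genes accounted for 4.502 to 5.12% of what replicate 3 held, against 2.46 to 3.18% elsewhere. The total that FPKM values were scaled by, recovered from the values, was 0.964 to 0.969 of the reads on genes in replicate 3 and 1.02 to 1.03 of them in the others. Summed FPKM was 301728 to 305984 in replicate 3 and 262958 to 278920 in the others. What set replicate 3 apart is not stated in the labels and was not tested.

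Markers of the line and of other cell types were read beside these values. All 7 epithelial markers were in the table, and their summed FPKM in replicates 1, 2 and 3 was 2524, 2415 and 3324 in control, 2506, 2433 and 3426 with TGF-β, 2281, 2306 and 2905 with NH4Cl and 2493, 2374 and 3023 in the combined group. Of 10 markers of fibroblasts, endothelium and immune cells, 7 were in the table, and PTPRC, CD68 and MS4A1 were not analysed here. Their summed FPKM was 1.73, 1.86 and 2.74 in control, 1.97, 1.71 and 2.64 with TGF-β, 2.25, 2.51 and 2.62 with NH4Cl and 2.09, 2.16 and 3.48 in the combined group. COL1A1 was the most abundant of them at 1.14 to 2.62 FPKM, with a mean of 2.21 in replicate 3 and 1.41 in the others, and COL1A2 was 0 at its lowest. Both sums were highest in replicate 3 of their group. With NH4Cl the epithelial sum was lower and, but for replicate 3 against control, the other sum was higher in each replicate of both comparisons, and their part in the NH4Cl results was not tested. The keratins carried most of the epithelial difference, with means of 1017 in replicate 3 and 782 elsewhere for KRT8, 1089 and 769 for KRT18 and 683 and 493 for KRT19, while EPCAM had 254 and 253, CDX2 13.9 and 13.4 and VIL1 91.5 and 89.7 FPKM. CDH1, which is not a keratin, was also higher in replicate 3, with means of 21.1 and 16.4 FPKM. These are bulk libraries, in which fewer cells of a type and less RNA per cell cannot be told apart.

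The stretch from 250 bases before to 50 bases after each transcription start (GRCh38.p14, RefSeq) was searched for ACGTG on both strands. ACGTG holds the core letters of the hypoxia response element. A match on the opposite strand reads CACGT, and the palindrome CACGTG holds a match on each strand, overlapping. ACGTG was in 7518 of all 35116 windows (21.4%) and in 26 of the 60 windows of members (43.3%). By gene it was in 6790 of 27305 genes with a window (24.9%) and in 20 of the 33 members with one (60.6%). Genes expressed enough to be tested are the closer comparison: 2882 of 8805 with a window had ACGTG (32.7%), as did 833 of the 2527 that were higher in replicate 3 (33.0%) and 16 of the 27 members higher in replicate 3 (59.3%). No test of these shares was made. The share among members higher in replicate 3 (59.3%) was not above that of all members with a window (60.6%). Many members are listed as hypoxia response genes, so a high share of these letters can come from the list itself. Members also had more windows per gene, 60 for 33 genes against 35116 for 27305. CACGTG was in 2548 of all windows (7.26%). NDRG1, BNIP3L, SLC2A3 and VEGFA had no window. A match describes letters and is not a binding site. CA9, ANKRD37 and ALDOC are shown because results turn on them, CA9 with the largest replicate 3 difference among members with a window and ALDOC and ANKRD37 called in replicate 3 and with NH4Cl, ANKRD37 with TGF-β present and not against control. The capitals mark ACGTG or CACGT. The CA9 window, chr9:35673678-35673977 on the plus strand, has 1 match on the opposite strand, 18 bases before the start. The ANKRD37 window, chr4:185396591-185396890 on the plus strand, has CACGTG 162 bases before the start and a further ACGTG 143 bases before it. The ALDOC window, chr17:28576846-28577145 on the minus strand, has CACGTG 240 bases before the start and CACGT 28 bases before it.
CA9: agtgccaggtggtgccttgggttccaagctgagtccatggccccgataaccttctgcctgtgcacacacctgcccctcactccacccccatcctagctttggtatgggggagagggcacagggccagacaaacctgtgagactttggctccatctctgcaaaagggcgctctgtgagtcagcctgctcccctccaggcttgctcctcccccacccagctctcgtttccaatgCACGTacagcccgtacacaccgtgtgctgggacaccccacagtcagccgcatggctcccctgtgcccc
ANKRD37: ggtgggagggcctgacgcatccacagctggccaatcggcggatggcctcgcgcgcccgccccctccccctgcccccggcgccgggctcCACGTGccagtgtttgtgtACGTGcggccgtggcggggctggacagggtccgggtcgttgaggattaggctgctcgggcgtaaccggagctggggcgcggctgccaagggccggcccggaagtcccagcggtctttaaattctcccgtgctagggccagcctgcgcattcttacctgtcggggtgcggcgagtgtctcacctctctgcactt
ALDOC: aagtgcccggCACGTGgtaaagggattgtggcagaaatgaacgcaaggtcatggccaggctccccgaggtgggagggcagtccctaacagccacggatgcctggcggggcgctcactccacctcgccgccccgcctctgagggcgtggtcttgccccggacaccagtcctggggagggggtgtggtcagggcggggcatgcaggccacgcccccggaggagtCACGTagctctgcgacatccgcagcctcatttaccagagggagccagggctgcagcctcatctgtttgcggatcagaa

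Levels of the glycolytic genes spread widely, from GAPDH at 1008 to 1552 FPKM and ENO1 at 779 to 1163 FPKM down to PKLR at 0.499 to 1.88 FPKM. BNIP3, a mitochondrial autophagy gene, was at 0.207 to 0.469 FPKM (17 to 38 reads), with its highest 4 values in replicate 3. LOX, a collagen cross-linking oxidase, was at 0.101 to 0.281 FPKM (9 to 29 reads). Neither passed the minimum for testing.

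**Figure D1:**
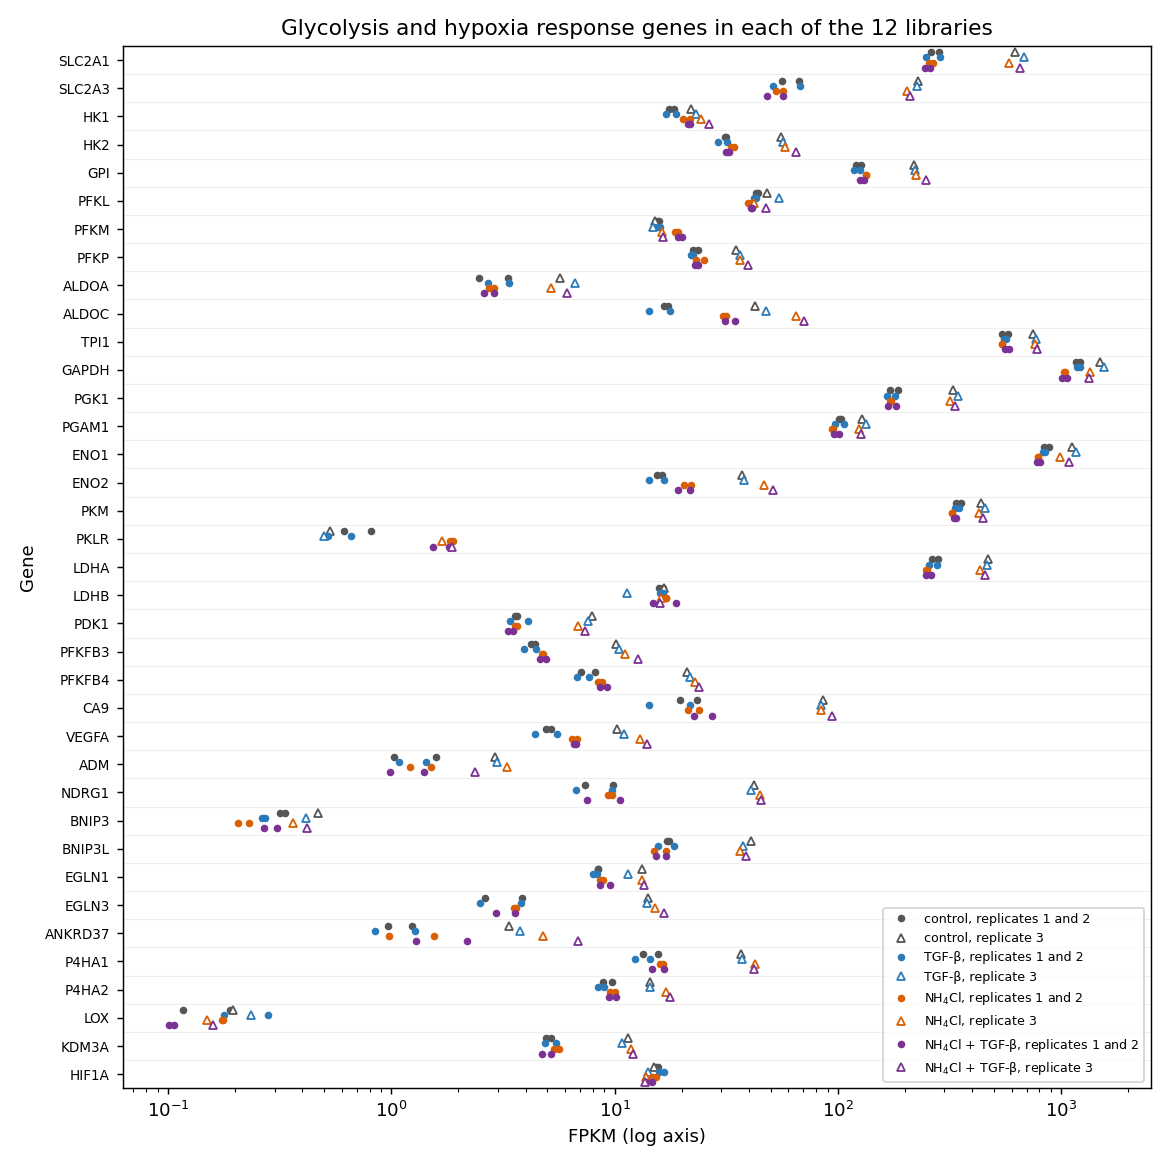
FPKM of the 37 genes (log axis) in each of the 12 libraries, coloured by group, with filled circles for replicates 1 and 2 and open triangles for replicate 3. Triangles lie to the right of the circles for most genes, while PKLR separates by NH4Cl, from 0.499 to 0.809 FPKM without it to 1.54 to 1.88 FPKM with it.

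In replicate 3, 31 of the 35 tested members were higher than in replicates 1 and 2 and 2 were lower (limma on log2(FPKM + 1), adjusted p under 0.05 over all genes). Among all 12341 genes tested, 58.8% passed, 28.9% higher and 29.9% lower, so most genes differed, but on the deposited scale in both directions about equally. The median log2 difference was 0.84 over the members and -0.0088 over all genes. Within each group it was 0.82 in control (32 of 35 members higher), 0.86 with TGF-β (31), 0.77 with NH4Cl (31) and 0.93 in the combined group (32), and the median ratio of FPKM was 1.83, 2.00, 1.85 and 2.00. For 30 of the 35 (85.7%), each of the 4 replicate 3 libraries was above each of the other 8, against 15.8% of all genes. The exceptions were PFKL, PFKM, PKLR, LDHB and HIF1A. The mitochondrial share, the scaling total and the marker sums moved with replicate 3, and their part in the difference was not tested. A log2 difference with the added 1 understates the change of genes at low FPKM. The p-values measure the spread between libraries that is left after group and replicate number. That spread may be technical, since the labels do not name separate cultures. All replicate 3 libraries share their number, so these p-values do not measure how far another replicate would differ.

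Scaling every library to the same sum shifted the median of all genes in replicate 3 to -0.15, while that of the members was 0.70. The split of all genes called became 1807 higher and 6501 lower, 21.8% higher against 49.2% as deposited. Relative to that shift the members stayed high: 31 of 35 were above 0 on each scale, and 33 were again called, 30 higher and 3 lower. The liver-type phosphofructokinase PFKL was no longer called, and LDHB was called lower, beside PFKM and HIF1A.

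Both glucose transporters were higher in replicate 3. SLC2A1, the main transporter of tumour cells, had FPKM values in replicates 1, 2 and 3 of 283, 261 and 619 in control, 287, 248 and 681 with TGF-β, 257, 266 and 586 with NH4Cl and 258, 247 and 655 in the combined group. Its log2 difference in replicate 3 was 1.27 ± 0.044 (adjusted p 3.61e-08), higher in 4 of 4 groups, with FPKM 2.24 to 2.59 times that of replicates 1 and 2. For SLC2A3, a transporter with high affinity for glucose, FPKM was 66.9, 56.2 and 228 in control, 67.6, 51.4 and 227 with TGF-β, 56.7, 53.02 and 203 with NH4Cl and 56.9, 48.3 and 211 in the combined group. Its difference was 1.92 ± 0.037 (adjusted p 3.19e-09) with FPKM ratios of 3.70 to 4.01. For both genes all 4 replicate 3 libraries lay above the other 8, while control and NH4Cl libraries overlapped.

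Of the 18 glycolytic enzymes, 15 were higher in replicate 3 and 1 was lower, where 28.9% and 29.9% of all genes were, with a median log2 difference of 0.43. The brain-type isoforms led: ALDOC, an aldolase, by 1.23 ± 0.074 (adjusted p 7.64e-07), 2.10 to 3.00 times in FPKM, and ENO2, the neuronal enolase, by 1.20 ± 0.033 (adjusted p 1.33e-08), 2.21 to 2.48 times. The widely expressed enzymes followed. PGK1, the first step that yields ATP, was 165 to 186 FPKM in replicates 1 and 2 and 317 to 346 FPKM in replicate 3, a difference of 0.92 ± 0.028 (adjusted p 1.93e-08). HK2, the inducible hexokinase, was 29.05 to 34.4 FPKM in replicates 1 and 2 and 55.9 to 65.0 FPKM in replicate 3 (0.86 ± 0.039, adjusted p 1.46e-07), GPI, the isomerase after it, 118 to 134 FPKM in replicates 1 and 2 and 219 to 248 FPKM in replicate 3 (0.84 ± 0.032, adjusted p 5.23e-08), and LDHA, which makes lactate, 249 to 282 FPKM in replicates 1 and 2 and 434 to 473 FPKM in replicate 3 (0.80 ± 0.025, adjusted p 1.97e-08). In each of these 6 genes the replicate 3 libraries were above all others. Smaller differences were measured in the remaining called enzymes: 0.65 for PFKP, 0.45 for TPI1, 0.41 for ENO1, 0.39 for PKM, 0.37 for GAPDH, 0.37 for PGAM1, 0.28 for HK1 and 0.19 for PFKL. ALDOA had 0.84 at only 2.48 to 6.62 FPKM, and its values are uncertain, since AC093512.2 on the same strand shares 42.3% of its exon bases.

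PFKM, the muscle-type phosphofructokinase, went the other way, at -0.14 ± 0.035 (adjusted p 0.00648), lower in 4 of 4 groups. PKLR and LDHB were not called, at -0.057 ± 0.066 (adjusted p 0.483) and -0.14 ± 0.079 (adjusted p 0.147). Isoforms of the same step had different calls, and the difference between isoforms was not tested. Among the phosphofructokinases, PFKP and PFKL were higher in replicate 3 (PFKL not after scaling to the same sum) and PFKM lower, and of the lactate dehydrogenases LDHA was higher while LDHB had values of 11.3 to 16.6 FPKM in replicate 3 and 14.8 to 18.9 FPKM in the others. LDHB shares 33.4% of its exon bases with AC010197.2 on the same strand, and how the counting divided such reads is not given. GAPDH, LDHA, PGK1, PGAM1, ENO1 and TPI1 have processed pseudogenes, so their levels carry the same doubt.

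All 3 regulators were higher in replicate 3. PFKFB3 and PFKFB4 make fructose 2,6-bisphosphate, the activator of phosphofructokinase, and PDK1 shuts pyruvate dehydrogenase. PFKFB4 had FPKM of 8.20, 7.04 and 21.1 in control, 7.69, 6.81 and 21.7 with TGF-β, 8.42, 8.80 and 22.9 with NH4Cl and 9.28, 8.61 and 23.8 in the combined group, a difference of 1.36 ± 0.040 (adjusted p 1.93e-08). PFKFB3 was 3.93 to 4.94 FPKM in replicates 1 and 2 and 10.1 to 12.7 FPKM in replicate 3 (1.13 ± 0.042, adjusted p 5.03e-08), and PDK1 3.32 to 4.08 and 6.87 to 7.92 FPKM (0.88 ± 0.043, adjusted p 2.15e-07). No replicate 3 library of these genes fell into the range of the other 8.

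Among hypoxia targets all 9 that were tested were higher in replicate 3, against 28.9% of all genes, with a median of 1.16. NDRG1, a stress gene that responds strongly to low oxygen and iron loss, had FPKM of 9.87, 7.38 and 42.1 in control, 9.78, 6.72 and 40.8 with TGF-β, 9.79, 9.31 and 44.9 with NH4Cl and 10.6, 7.51 and 45.1 in the combined group. Its difference of 2.18 ± 0.052 (adjusted p 4.87e-09) ranked 1 of 12341 genes from the highest, and its FPKM ratio was 4.70 to 4.99. Replicates 1 and 2 reached at most 10.6 FPKM and replicate 3 at least 40.8 FPKM. CA9, a cell-surface carbonic anhydrase that exports acid and whose promoter window is printed above, had FPKM of 23.3, 19.7 and 85.99 in control, 21.9, 14.2 and 84.02 with TGF-β, 21.4, 23.9 and 83.9 with NH4Cl and 27.4, 22.8 and 93.8 in the combined group. It differed by 1.96 ± 0.086 (adjusted p 1.3e-07), ranked 4, with ratios of 3.71 to 4.65, and the lowest replicate 3 value was 83.9 FPKM against a highest value of 27.4 FPKM elsewhere. ARHGEF39 on the opposite strand shares 38.5% of the CA9 exon bases, at a mean of 1.84 FPKM.

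ANKRD37, an ankyrin-repeat gene with both CACGTG and ACGTG in its window, had FPKM of 1.24, 0.970 and 3.37 in control, 1.27, 0.843 and 3.76 with TGF-β, 1.56, 0.973 and 4.80 with NH4Cl and 2.18, 1.29 and 6.87 in the combined group. It differed by 1.30 ± 0.075 (adjusted p 6.06e-07) in replicate 3, with ratios of 3.06 to 3.96. UFSP2 on the opposite strand shares 35.2% of its exon bases at a mean of 7.18 FPKM, so the level of ANKRD37 is uncertain. P4HA1 and P4HA2 hydroxylate collagen, and they differed by 1.35 ± 0.032 (adjusted p 4.87e-09) and 0.70 ± 0.035 (adjusted p 2.74e-07). BNIP3L, a mitochondrial autophagy receptor, differed by 1.16 ± 0.047 (adjusted p 8.9e-08), and KDM3A, a histone demethylase, by 1.02 ± 0.037 (adjusted p 5.03e-08). VEGFA, the vessel growth factor, was 4.42 to 6.77 FPKM in replicates 1 and 2 and 10.3 to 14.04 FPKM in replicate 3 (0.94 ± 0.042, adjusted p 1.36e-07). ADM, a vasodilator peptide, was 0.987 to 1.59 and 2.38 to 3.28 FPKM (0.77 ± 0.078, adjusted p 2.1e-05). None of these genes had a replicate 3 value within the range of replicates 1 and 2.

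Both sensors were higher in replicate 3 and HIF1A was lower. EGLN3, itself a target of the factor it restrains, had FPKM of 3.84, 2.64 and 14.1 in control, 3.82, 2.51 and 14.03 with TGF-β, 3.63, 3.53 and 15.2 with NH4Cl and 3.59, 2.93 and 16.7 in the combined group. It differed by 1.90 ± 0.062 (adjusted p 3.08e-08), with ratios of 4.24 to 5.12. EGLN1 was 8.04 to 9.55 FPKM in replicates 1 and 2 and 11.5 to 13.6 FPKM in replicate 3 (0.53 ± 0.033, adjusted p 1.03e-06). In both genes the replicate 3 libraries formed a separate upper range. HIF1A, which encodes HIF-1α and is controlled mainly through its protein, had FPKM of 15.3, 15.7 and 15.01 in control, 16.7, 15.8 and 14.1 with TGF-β, 14.8, 15.4 and 13.8 with NH4Cl and 14.6, 13.8 and 13.6 in the combined group. Its difference was -0.10 ± 0.034 (adjusted p 0.0249), lower in 4 of 4 groups with overlapping values, and the call was lost without TGF-β replicate 3 or NH4Cl replicate 2 or 3 (-0.097 to -0.073, adjusted p 0.0508 to 0.111).

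**Figure D2:**
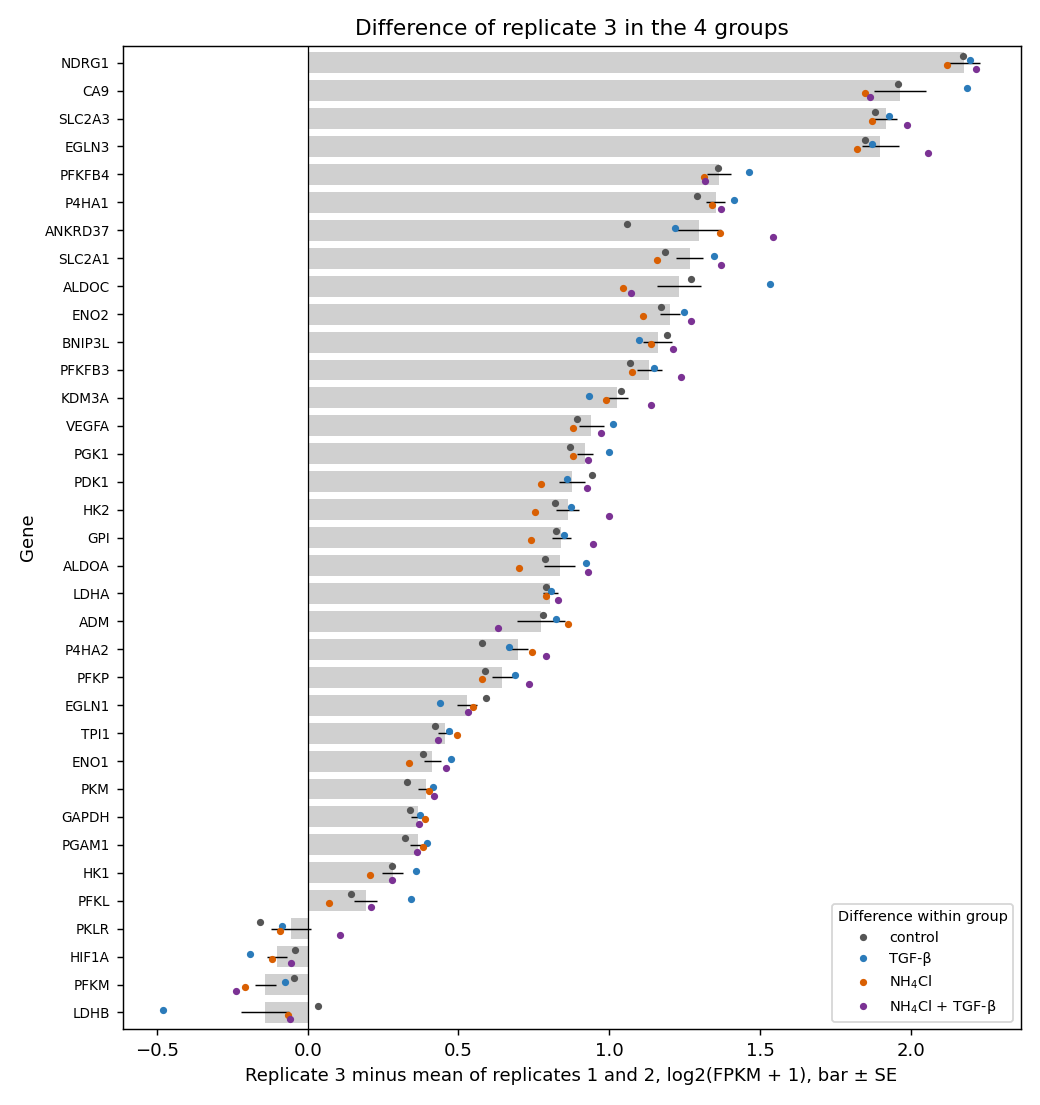
Difference of replicate 3 from the mean of replicates 1 and 2 within each group, in log2(FPKM + 1), for the 35 tested genes. NDRG1, CA9, SLC2A3 and EGLN3 have the largest fitted values, 2.18, 1.96, 1.92 and 1.90, and PFKM, PKLR, LDHB and HIF1A have fitted values below 0.

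Other genes of the hypoxia pathway, listed by function, were read in the same way. Of 25 further HIF targets 20 were tested, and 18 were higher in replicate 3 and 0 lower, with a median of 0.74 and 18 genes at an unadjusted p under 0.05 in limma. Of the targets tested 90% were thus higher, against 28.9% of all genes. DDIT4, an inhibitor of growth signalling through mTOR, was 5.57 to 12.1 FPKM in replicates 1 and 2 and 36.9 to 44.8 FPKM in replicate 3 (2.09 ± 0.071, adjusted p 3.35e-08). NDUFA4L2, a mitochondrial protein induced by low oxygen, differed by 1.48 ± 0.093 (adjusted p 1.03e-06). Of 14 regulators of the factor 12 were tested, with 2 higher and 4 lower, 50% against 58.8% of all genes, and a median of -0.069. That share does not set the regulators above all genes. CITED2, which competes with HIF-1α for its coactivator, differed by 0.67 ± 0.057 (adjusted p 6.97e-06), EPAS1, which encodes HIF-2α, by 0.33 ± 0.044 (adjusted p 0.000123), and ARNT2, a partner subunit, by -0.53 ± 0.052 (adjusted p 1.62e-05).

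Isoforms outside the list and genes that feed glycolysis split in replicate 3. Of 19 such genes 15 were in the table and 9 were tested, with 4 higher and 4 lower, 88.9% against 58.8% of all genes. HKDC1, a further hexokinase, differed by 0.99 ± 0.036 (adjusted p 5.03e-08) and PGM1, which interconverts glucose 1-phosphate and glucose 6-phosphate, by 0.40 ± 0.035 (adjusted p 7.54e-06). SLC16A1, a lactate transporter, was 37.7 to 39.98 FPKM in replicates 1 and 2 and 25.5 to 29.1 FPKM in replicate 3 (-0.50 ± 0.034, adjusted p 1.67e-06), with all 4 replicate 3 libraries below the rest.

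Fewer members were called with NH4Cl than in replicate 3, some higher and some lower. Against control, 7 members were higher and 3 lower, 10 of 35 (28.6%), where 13.6% of all genes were called, 7.42% higher and 6.14% lower. With TGF-β present, NH4Cl left 12 members higher and 1 lower, 13 of 35 (37.1%), against 18.8% of all genes, 10.3% higher and 8.48% lower. PKLR reached the level for testing only through the NH4Cl libraries, and without it the counts were 9 of 34 and 12 of 34. The median log2 difference of those 34 was 0.048 and 0.092, and 8.4e-05 and -5.7e-05 over all genes. Over all 35 members, PKLR included, the median against control was -0.011, 0.093 and 0.036 in replicates 1, 2 and 3. With TGF-β present it was 0.051, 0.080 and 0.14. In each comparison 20 of the 34 were above 0. The comparisons have no library in common, but both come from the same model of all 12 libraries, so their calls are not independent. Beside PKLR 7 members were called in both with the same sign, out of the 9 and the 12: HK1, PFKM, ALDOC, ENO2, VEGFA and P4HA1 higher and GAPDH lower. For all genes the overlap was 1223, which was 73.1% of 1674 and 52.7% of 2322.

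These counts rest on comparing libraries of the same replicate number. Whether replicates 1 and 2 are paired by number across groups was not tested. With replicates 1 and 2 only, 6 members (5 higher, 1 lower) were called against control and 10 (9 higher, 1 lower) with TGF-β present, where 9.29% and 13.4% of all genes were called. Without the replicate block, 1 member was called in each, which was PKLR, a gene tested only through its NH4Cl libraries, and 0.381% and 1.03% of all genes. Leaving out control replicate 2 gave 5 members against control, and leaving out control replicate 3 or NH4Cl replicate 1 gave 6. PKLR is 1 of the members in each of these counts, so with replicates 1 and 2 only 5 and 9 others were called. A test of whether the NH4Cl difference was another in replicate 3 called 0 members and 0% of all genes in limma, with 4 members and 1234 genes at an unadjusted p under 0.05. The 4 members were PFKM (-0.16, adjusted p 0.408), ALDOC (-0.34, 0.408), ANKRD37 (0.32, 0.423) and P4HA2 (0.14, 0.435).

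**Figure D3:**
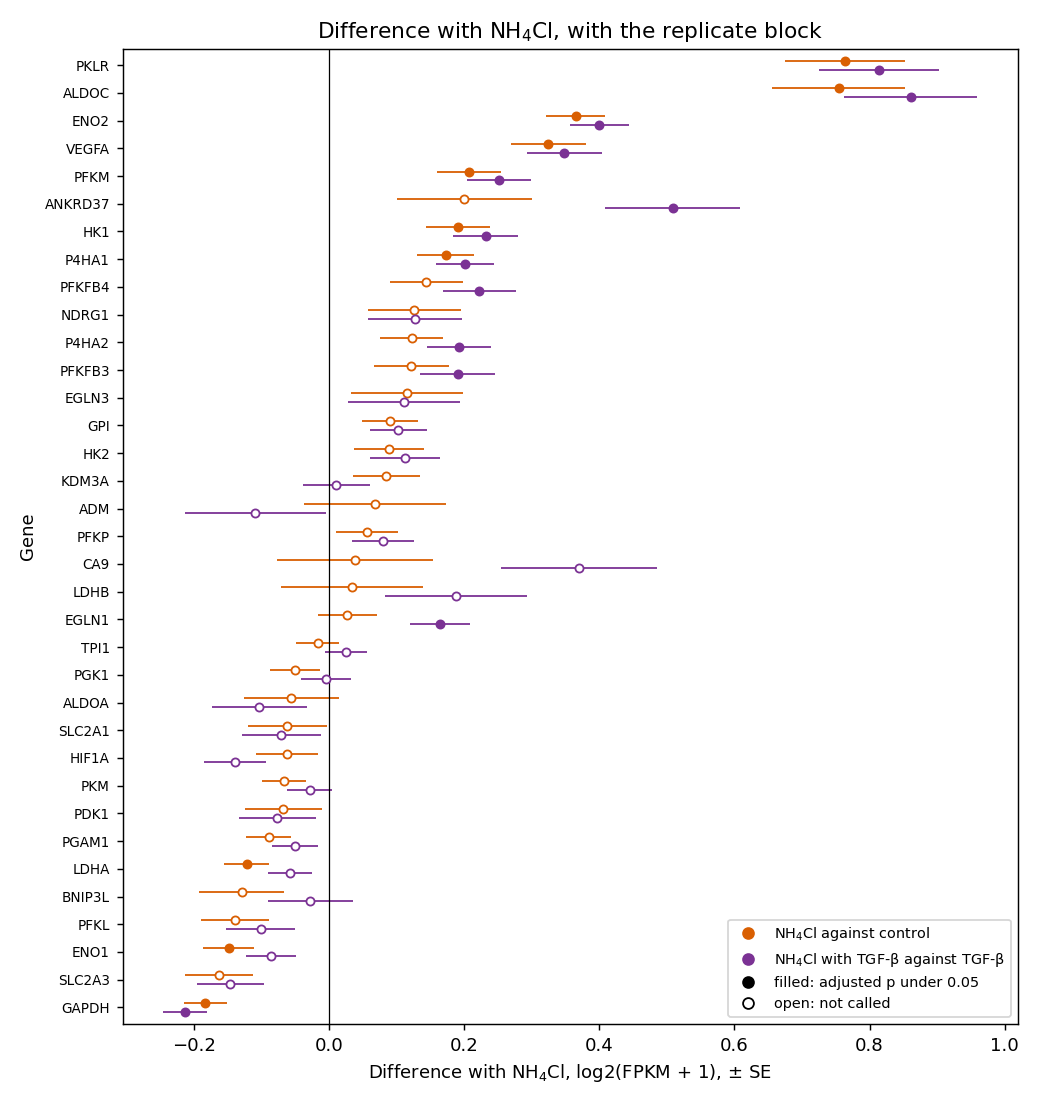
Difference with NH4Cl in log2(FPKM + 1) with its SE for the 35 tested genes, against control and with TGF-β in both groups. PKLR (0.76 and 0.81) and ALDOC (0.75 and 0.86) lie farthest to the right, and GAPDH (-0.18 and -0.21) farthest to the left among genes called in both.

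Neither glucose transporter was called with NH4Cl. SLC2A3 was -0.16 against control (adjusted p 0.0586) and -0.15 with TGF-β present (0.0686), and SLC2A1 was -0.061 (0.537) against control. Centring each library on its median called SLC2A3 lower against control.

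Of the 18 enzymes 5 were higher and 3 lower with NH4Cl against control, and 5 were higher and 1 lower with TGF-β present. PKLR is 1 of the 5 in each, and of all genes 7.42% were higher and 6.14% lower in the first comparison and 10.3% and 8.48% in the other. ALDOC, whose window was shown with 3 matches, had FPKM of 17.3, 16.7 and 42.5 in control, 17.6, 14.2 and 47.8 with TGF-β, 30.6, 31.4 and 65.1 with NH4Cl and 34.7, 31.4 and 70.5 in the combined group. Its log2 difference was 0.75 ± 0.098 (adjusted p 0.00150) against control and 0.86 ± 0.098 (adjusted p 0.000655) with TGF-β present, 1.66 and 1.72 times in mean FPKM and higher in 3 of 3 replicates of each. Within every replicate number NH4Cl libraries were the higher ones, but control replicate 3 (42.5 FPKM) exceeded NH4Cl replicates 1 and 2, so the groups overlapped. ENO2 had FPKM of 16.4, 15.5 and 37.2 in control, 16.7, 14.3 and 38.05 with TGF-β, 21.9, 20.4 and 46.8 with NH4Cl and 21.9, 19.3 and 51.1 in the combined group. It differed by 0.37 ± 0.044 (adjusted p 0.00117) against control and 0.40 ± 0.044 (adjusted p 0.000525) with TGF-β present, with the same pattern of overlap across replicate numbers. An antisense gene, AC005726.4, shares 10.1% of the ALDOC exon bases.

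PFKM had FPKM of 15.8, 15.5 and 15.1 in control, 15.5, 15.96 and 14.9 with TGF-β, 18.7, 19.2 and 16.3 with NH4Cl and 19.3, 20.04 and 16.5 in the combined group. It differed by 0.21 ± 0.047 (adjusted p 0.0189) against control and 0.25 ± 0.047 (adjusted p 0.00639) with TGF-β present, and groups with and without NH4Cl did not overlap in either comparison. Against control its call was lost without control replicate 1 or 2 or NH4Cl replicate 1 or 2 (0.17 to 0.20, adjusted p 0.0728 to 0.0918) and with only the groups compared in the model. HK1, the widely expressed hexokinase, had FPKM of 18.4, 17.6 and 22.1 in control, 16.9, 18.8 and 23.2 with TGF-β, 20.4, 21.8 and 24.5 with NH4Cl and 21.7, 21.4 and 26.4 in the combined group. It differed by 0.19 ± 0.048 (adjusted p 0.0271) against control and 0.23 ± 0.048 (adjusted p 0.00943) with TGF-β present, higher in 3 of 3 replicates of each with overlapping groups. Against control the HK1 call was lost without control replicate 2 or 3 or NH4Cl replicate 1 or 2 (0.16 to 0.19, adjusted p 0.0809 to 0.128), with no filter on FPKM and with only the groups compared. PFKL, by contrast, had 44.1, 43.2 and 48.3 FPKM in control and 40.8, 39.6 and 42.3 with NH4Cl, a difference of -0.14 ± 0.051 (adjusted p 0.101) that was not called although the groups did not overlap.

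The called enzymes that were lower were GAPDH, ENO1 and LDHA. GAPDH, which oxidises glyceraldehyde 3-phosphate, had FPKM of 1209, 1162 and 1499 in control, 1217, 1181 and 1552 with TGF-β, 1025, 1040.4 and 1351 with NH4Cl and 1063, 1008 and 1338 in the combined group. It differed by -0.18 ± 0.032 (adjusted p 0.00614) against control and -0.21 ± 0.032 (adjusted p 0.00226) with TGF-β present, lower in 3 of 3 replicates of each, with mean FPKM at 0.883 and 0.863 of the group without NH4Cl. Within each replicate number NH4Cl libraries were the lower ones, and replicate 3 of either group lay above the rest. ENO1, the main enolase, had 882, 842 and 1123 FPKM in control and 786, 786 and 991 with NH4Cl, a difference of -0.15 ± 0.038 (adjusted p 0.0293), and it was not called with TGF-β present (-0.085, adjusted p 0.144). LDHA had 282, 263 and 473 FPKM in control and 249, 252 and 434 with NH4Cl, a difference of -0.12 ± 0.033 (adjusted p 0.0375), and -0.057 with TGF-β present (adjusted p 0.260). Both were lower in 3 of 3 replicates, by less than the gap between replicate 3 and the others. The ENO1 call was lost without control replicate 1, 2 or 3 or NH4Cl replicate 1 or 3 (-0.16 to -0.11, adjusted p 0.0685 to 0.128). The LDHA call was lost without control replicate 1, 2 or 3, NH4Cl replicate 1 or 3 or NH4Cl with TGF-β replicate 2 (-0.13 to -0.096, adjusted p 0.0503 to 0.150), after scaling libraries to the same sum and with only the groups compared. AC006064.4, an antisense gene, shares 14.2% of the GAPDH exon bases. Without the filter on FPKM none of GAPDH, ENO1 and LDHA was called against control.

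Of the targets, VEGFA and P4HA1 were called in both comparisons. VEGFA had FPKM of 5.21, 4.92 and 10.3 in control, 5.55, 4.42 and 11.02 with TGF-β, 6.77, 6.46 and 13.02 with NH4Cl and 6.71, 6.61 and 14.04 in the combined group. It differed by 0.32 ± 0.056 (adjusted p 0.00531) against control and 0.35 ± 0.056 (adjusted p 0.00289) with TGF-β present, 1.29 and 1.30 times in mean FPKM. In each replicate number the NH4Cl libraries were higher, while replicate 3 without NH4Cl lay above replicates 1 and 2 with it. P4HA1 had FPKM of 15.7, 13.3 and 36.9 in control, 14.5, 12.4 and 37.3 with TGF-β, 16.6, 15.97 and 42.7 with NH4Cl and 16.7, 14.8 and 42.2 in the combined group. It differed by 0.17 ± 0.042 (adjusted p 0.0257) against control and 0.20 ± 0.042 (adjusted p 0.0108) with TGF-β present. Its call was lost against control without control replicate 2 or 3 or NH4Cl replicate 2 or 3 (0.13 to 0.18, adjusted p 0.0548 to 0.122) and with only the groups compared, and with TGF-β present without TGF-β replicate 2 (log2 difference 0.17, adjusted p 0.0550).

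A further 5 members were called higher with TGF-β present and not against control. The interaction of the agents, which tests that difference, called 0 of 35 members in limma, with 0 at an unadjusted p under 0.05. ANKRD37 had 1.27, 0.843 and 3.76 FPKM with TGF-β and 2.18, 1.29 and 6.87 in the combined group. It differed by 0.51 ± 0.10 (adjusted p 0.00785), 1.76 times in mean FPKM, against 0.20 ± 0.10 (adjusted p 0.219) from control, and the interaction was 0.31 ± 0.14 (adjusted p 0.992). NH4Cl was the higher library in each replicate number, with overlap between groups. PFKFB4 differed by 0.22 ± 0.054 (adjusted p 0.0197), P4HA2 by 0.19 ± 0.047 (adjusted p 0.0204), PFKFB3 by 0.19 ± 0.055 (adjusted p 0.0395) and EGLN1 by 0.16 ± 0.044 (adjusted p 0.0292). The PFKFB4 call was lost without TGF-β replicate 1 or 2 or NH4Cl with TGF-β replicate 1 or 2 (0.18 to 0.22, adjusted p 0.0664 to 0.0861). The P4HA2 call was lost without TGF-β replicate 1, 2 or 3 or NH4Cl with TGF-β replicate 3 (0.15 to 0.20, adjusted p 0.0599 to 0.0723). The PFKFB3 call was lost without control replicate 1 or 2, TGF-β replicate 1, 2 or 3, NH4Cl replicate 1 or NH4Cl with TGF-β replicate 2 or 3 (0.14 to 0.23, adjusted p 0.0526 to 0.158), and after scaling to the same sum. The EGLN1 call was lost without TGF-β replicate 1, 2 or 3 or NH4Cl with TGF-β replicate 1 or 3 (0.12 to 0.19, adjusted p 0.0551 to 0.104). With only the groups compared PFKFB4, P4HA2, PFKFB3 and EGLN1 were not called, and without the filter on FPKM PFKFB3 and EGLN1 were not.

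NDRG1, CA9, SLC2A3 and EGLN3, with the largest replicate 3 differences, were not called with NH4Cl in either comparison. CA9 differed by 0.038 ± 0.12 (adjusted p 0.867) against control and 0.37 ± 0.12 (adjusted p 0.0501) with TGF-β present, the latter higher in 3 of 3 replicates. NDRG1 differed by 0.13 ± 0.069 (adjusted p 0.263) against control and BNIP3L by -0.13 ± 0.063 (adjusted p 0.211). HIF1A was -0.062 ± 0.045 (adjusted p 0.409) against control and -0.14 ± 0.045 (adjusted p 0.0591) with TGF-β present, and centring on the median called it lower in the latter. Among libraries of replicates 1 and 2 only, adjusted p against control was 0.0153 for PFKM, 0.00380 for ALDOC, 0.0462 for GAPDH, 0.00861 for ENO2 and 0.0410 for VEGFA, and the calls of HK1 (0.0666), ENO1 (0.0960), LDHA (0.141) and P4HA1 (0.116) were lost. With TGF-β present, those lost were PFKFB3 (0.165), EGLN1 (0.125) and P4HA2 (0.0617), while ANKRD37 (0.0491) and PFKFB4 (0.0471) stayed called.

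PKLR and PKM encode the pyruvate kinases of the last step of glycolysis, PKLR the form of liver and red cells and PKM the form of most other tissues and of tumours. PKLR (ENSG00000143627) lies at chr1:155289293-155301438 and PKM (ENSG00000067225) at chr15:72199029-72231822, both on the minus strand of GRCh38. Their promoter windows, all on the minus strand, are shown because the ratio of the genes moved with NH4Cl. The first PKLR window, chr1:155301389-155301688, holds CACGTG 197 bases before the start, and ACGTG is not among the letters of the second PKLR window, chr1:155300903-155301202, or of the PKM window, chr15:72231141-72231440.
PKLR, first start: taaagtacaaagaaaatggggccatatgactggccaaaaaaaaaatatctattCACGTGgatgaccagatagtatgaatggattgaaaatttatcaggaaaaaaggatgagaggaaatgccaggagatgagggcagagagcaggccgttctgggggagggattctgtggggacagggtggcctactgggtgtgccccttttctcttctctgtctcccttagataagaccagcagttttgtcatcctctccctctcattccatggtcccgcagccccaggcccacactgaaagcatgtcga
PKLR, second start: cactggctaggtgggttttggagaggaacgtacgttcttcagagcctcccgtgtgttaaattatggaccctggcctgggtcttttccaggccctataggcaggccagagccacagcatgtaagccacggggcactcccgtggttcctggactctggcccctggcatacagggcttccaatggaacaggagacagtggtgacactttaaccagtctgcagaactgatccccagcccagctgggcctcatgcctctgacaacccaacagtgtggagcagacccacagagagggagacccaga
PKM: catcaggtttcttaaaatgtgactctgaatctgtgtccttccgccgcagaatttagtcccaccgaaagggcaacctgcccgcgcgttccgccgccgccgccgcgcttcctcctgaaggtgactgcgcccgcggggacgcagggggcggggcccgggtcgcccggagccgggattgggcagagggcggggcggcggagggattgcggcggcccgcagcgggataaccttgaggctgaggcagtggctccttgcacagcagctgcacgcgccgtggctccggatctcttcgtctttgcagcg

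PKLR FPKM in replicates 1, 2 and 3 was 0.615, 0.809 and 0.533 in control, 0.662, 0.520 and 0.499 with TGF-β, 1.88, 1.84 and 1.68 with NH4Cl and 1.54, 1.82 and 1.88 in the combined group, from 33, 44 and 25 reads in control, 39, 25 and 23 with TGF-β, 92, 95 and 77 with NH4Cl and 78, 88 and 101 in the combined group. Every library with NH4Cl lay above every library without it, at 1.54 to 1.88 FPKM against 0.499 to 0.809 FPKM. The fitted log2 difference was 0.76 ± 0.088 against control and 0.81 ± 0.088 with TGF-β present, 2.76 and 3.11 times in mean FPKM. PKLR was picked out with earlier results of these data known and reached the level for testing only through the NH4Cl libraries, so these values describe it and no p-value is given for them.

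PKM FPKM was 354, 339 and 436 in control, 348, 334 and 455 with TGF-β, 326, 325 and 430.4 with NH4Cl and 331, 337 and 447 in the combined group. It was not called with NH4Cl, at -0.066 ± 0.033 (adjusted p 0.220) against control and -0.028 ± 0.033 (adjusted p 0.594) with TGF-β present, and was higher in replicate 3 by 0.39 ± 0.025 (adjusted p 1.05e-06). PKLR separated by NH4Cl and was not called in replicate 3, where PKM was higher. The log2 ratio of PKLR to PKM was -9.19 ± 0.48 in control, -9.40 ± 0.40 with TGF-β, -7.64 ± 0.32 with NH4Cl and -7.73 ± 0.18 in the combined group (mean ± SD, n = 3). By library it was -9.17, -8.71 and -9.68 in control, -9.04, -9.33 and -9.83 with TGF-β, -7.44, -7.47 and -8.00 with NH4Cl and -7.75, -7.54 and -7.89 in the combined group, without overlap between libraries with and without NH4Cl. PKLR nevertheless made up 0.178 ± 0.0582% of the summed FPKM of both genes in control, 0.152 ± 0.0404% with TGF-β, 0.508 ± 0.103% with NH4Cl and 0.473 ± 0.0594% in the combined group. PKM was the larger by a mean factor of 605 in control and 202 with NH4Cl.

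Strand was not stated for the counting, and HCN3, on the strand opposite to PKLR, shares 17.6% of the PKLR exon bases and had a mean of 2.54 FPKM. It was not called with NH4Cl, at 0.14 ± 0.096 (adjusted p 0.382) against control and 0.055 ± 0.096 (adjusted p 0.732) with TGF-β present. Whether HCN3 reads entered the PKLR count was not tested. FDPS, the other neighbour of PKLR that was read, was called higher with NH4Cl in limma. It differed by 0.34 ± 0.032 (adjusted p 0.000332) against control and 0.40 ± 0.032 (adjusted p 0.000111) with TGF-β present. Without the replicate block neither FDPS call held (adjusted p 0.356 and 0.219). Whether the change of FDPS bears on PKLR was not tested. In the enolase pair ENO2 made up 2.28 ± 0.801% of ENO1 and ENO2 in control, 2.27 ± 0.790% with TGF-β, 3.25 ± 1.095% with NH4Cl and 3.19 ± 1.13% in the combined group.

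**Figure D4:**
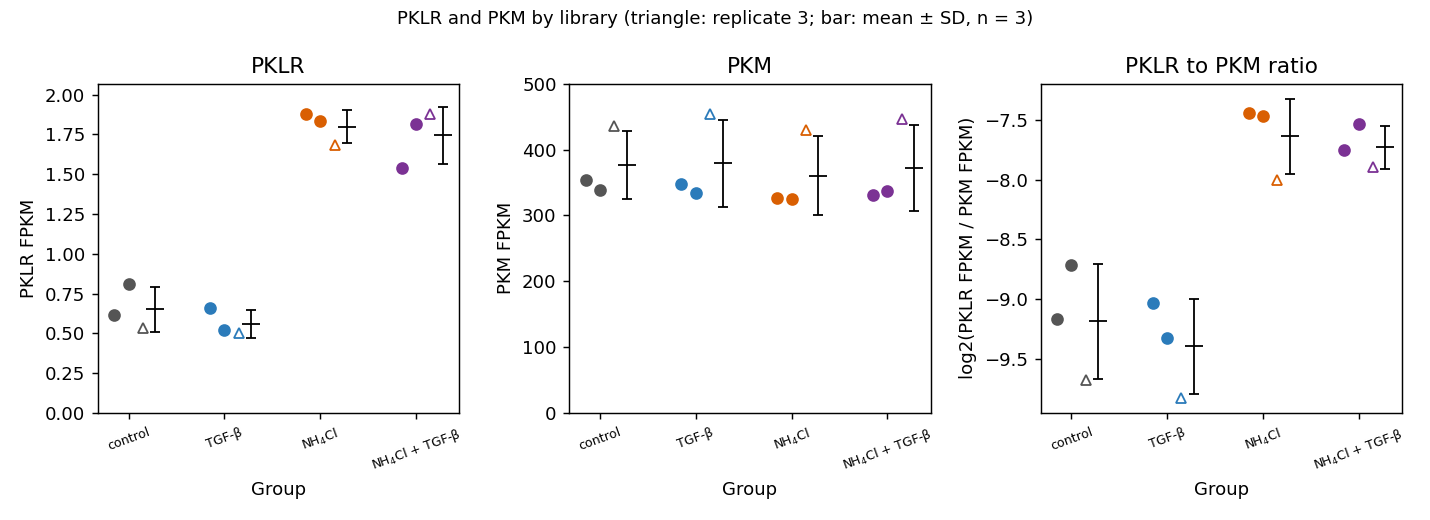
FPKM of PKLR and of PKM, and the log2 ratio of PKLR to PKM, in each library by group, with bars for the mean and SD of 3 libraries and open triangles for replicate 3. PKLR and the ratio are higher in all 6 NH4Cl libraries, and PKM is highest in replicate 3 of each group.

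TGF-β alone and on top of NH4Cl called no member in limma. Against control 0 of 35 passed and 0 were at an unadjusted p under 0.05, and 0.0081% of all genes passed (1 of 12341, with 422 unadjusted). With both agents against NH4Cl 0 of 35 passed and 1, ANKRD37, was at an unadjusted p under 0.05, and again 0.0081% of all genes passed (1, with 879 unadjusted). The interaction called 0 members and 0% of all genes, with 0 and 537 at an unadjusted p under 0.05. Member differences with TGF-β ran from -0.19 to 0.094 against control and from -0.19 to 0.32 against NH4Cl. The gene called in both was ID1, a prompt target of TGF-β family signals named here after its values were seen, with FPKM of 26.1, 22.9 and 46.6 in control, 45.4, 37.1 and 66.2 with TGF-β, 21.9, 17.1 and 38.05 with NH4Cl and 32.2, 31.04 and 54.9 in the combined group. It differed by 0.65 ± 0.066 (adjusted p 0.0248) and 0.62 ± 0.066 (adjusted p 0.0342), higher in 3 of 3 replicates of each. Its call was lost against control without control replicate 1, 2 or 3, TGF-β replicate 1 or 2, NH4Cl replicate 1 or NH4Cl with TGF-β replicate 1 or 3 (0.59 to 0.68, adjusted p 0.0510 to 0.296), and against NH4Cl without control replicate 1, 2 or 3, TGF-β replicate 2, NH4Cl replicate 1, 2 or 3 or NH4Cl with TGF-β replicate 1, 2 or 3 (0.56 to 0.68, adjusted p 0.0767 to 0.281). Neither call held with replicates 1 and 2 only (adjusted p 0.112 and 0.250) or without the replicate block. An uncalled member is not shown to be unchanged by TGF-β.

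The wider hypoxia and glycolysis genes were also counted with NH4Cl. Of the 20 tested further HIF targets 4 (20%) were higher against control and 7 (35%) with TGF-β present, where 7.42% and 10.3% of all genes were higher, and 0 were lower in limma (5 and 9 at an unadjusted p under 0.05 in either direction), with medians of 0.057 and 0.10. BHLHE40, a transcriptional repressor, had FPKM of 35.5, 32.96 and 61.9 in control, 38.9, 35.8 and 66.7 with TGF-β, 49.5, 54.3 and 88.2 with NH4Cl and 56.0, 53.6 and 106 in the combined group. It differed by 0.56 ± 0.053 (adjusted p 0.000360) against control and 0.58 ± 0.053 (adjusted p 0.000215) with TGF-β present. STC2, a secreted stanniocalcin, differed by 0.32 ± 0.044 (adjusted p 0.00197) against control and 0.27 ± 0.044 (adjusted p 0.00298) with TGF-β present. In both genes NH4Cl libraries were higher in 3 of 3 replicates, with groups that overlapped through replicate 3. Of 12 regulators 1 was higher and 1 lower against control, and 2 were lower with TGF-β present, 16.7% called in each against 13.6% and 18.8% of all genes. ARNT2 had 5.41, 5.86 and 3.28 FPKM in control and 4.12, 3.84 and 2.75 with NH4Cl. It differed by -0.34 ± 0.069 (adjusted p 0.0124) against control and -0.40 ± 0.069 (adjusted p 0.00445) with TGF-β present, and its call against control was lost without control replicate 1 or 2 or NH4Cl replicate 2 (-0.32 to -0.26, adjusted p 0.0531 to 0.0623). EPAS1 differed by 0.24 ± 0.058 (adjusted p 0.0234) against control, a call lost without control replicate 1, 2 or 3 or NH4Cl replicate 1 or 2 (0.22 to 0.26, adjusted p 0.0699 to 0.102), with no filter on FPKM, with only the groups compared and with replicates 1 and 2 only (adjusted p 0.0844). Of the 9 tested isoforms and feeder genes outside the list, 1 (11.1%) was higher against control and 2 (22.2%) with TGF-β present. PFKFB2, a sister of PFKFB3, differed by 0.34 ± 0.067 (adjusted p 0.0107) against control and 0.40 ± 0.067 (adjusted p 0.00371) with TGF-β present. Without the replicate block BHLHE40, STC2, ARNT2, EPAS1 and PFKFB2 were not called with NH4Cl.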

How the data were processed

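Messenger RNA levels were measured by RNA sequencing in 12 libraries of HCT116 cells. The authors deposited FPKM for 25733 genes. The submitters' processing notes name Trimmomatic 0.36, STAR 2.5.2b, featureCounts of Subread 1.5.2, DESeq2 and GRCh38 (hg38). The paper's methods name HTSeq for counting and a PureLink kit for RNA, where the labels give RNeasy Plus Mini. Annotation, strand setting and scaling total are not given in the sources used here, so overlapping and antisense genes are uncertain. Doses and times are from the methods.

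All 25733 gene identifiers were matched to GENCODE 29, and gene lengths turned FPKM into reads. With a tolerance of 0.01, 100% of the values above 0 came out as whole reads in each library. These reads served for depth, mitochondrial share and the chi-square between replicates, and no count model was fitted.

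The tests used limma 3.58.1 in R 4.3.3, with an intensity trend, on log2(FPKM + 1) of the 12341 genes with a mean of at least 1 FPKM. All 12 libraries entered, with group and replicate number as terms, and Benjamini-Hochberg adjustment ran over all genes tested. Adjusted p under 0.05 was called. Tables were made in Python 3.11.15. Replicate numbers come from the labels. Deviations from group means correlated between libraries of the same number at 0.349 to 0.774 over 18 pairs, and the number was kept as a block. Replicate 3 lay apart in every group, so the other libraries of a group deviate from its mean in the opposite direction. That alone can make these correlations positive. Libraries of different numbers were not correlated, so the values cannot decide whether numbers other than 3 are paired across groups.

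The members and lists were chosen with earlier results of these data known. Genes named outside the members were at most 3 a list with the largest NH4Cl difference among those called with one sign in all replicates, at most 3 with the largest replicate 3 difference, and neighbours that bear on a value. Promoter sequences are from RefSeq (GRCh38.p14), with a window for 33 of 37 members. Alternatives were a pseudocount of 0.1, a minimum of 5 FPKM or none, scaling to the same sum, centring on the median, only the groups compared, no replicate block, replicates 1 and 2 only, and each library left out.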

Additional observations from a re-analysis of the deposited data

How the results depend on the processing

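Of the members, 10 were called against control. That count was 6 with no filter on FPKM, 6 with only the groups compared in the model and 6 with replicates 1 and 2 only. It ranged from 5 to 11 as each library was left out. With no replicate block it was 1 against control, and 1 instead of 13 with TGF-β present, where leaving out libraries gave 9 to 15. The 1 member without the block was PKLR, which passed the filter of 1 FPKM only through its NH4Cl libraries. PKLR is in each of these counts, and without it the 10 and 13 were 9 and 12. A minimum of 5 FPKM left 30 members tested. Of these 6 were higher and 4 lower against control, and 11 higher and 3 lower with TGF-β present. No value called changed its direction. The log2 ratio of PKLR to PKM, taken as a difference of log2(FPKM + 1) values, was -7.83 in control, -7.92 with TGF-β, -7.00 with NH4Cl and -7.07 in the combined group, since the added 1 lifts PKLR at its low FPKM. Among the NH4Cl values that were followed, some of them not reported here, 1733 settings kept the call or its absence, 150 lost a call and 19 gained one. For replicate 3 these were 921, 6 and 1. Of 23 followed calls against control 12 were kept in all settings but the absence of the block, of 23 with TGF-β present 16, and of 53 in replicate 3 49 in all settings. For counts and calls that moved, the cause was not tested.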

Other observations

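Genes on either side of glycolysis were measured from the same fixed lists. Of all genes tested, 13.6% were called with NH4Cl against control, 18.8% with TGF-β present and 58.8% in replicate 3 (28.9% higher and 29.9% lower as deposited, with 21.8% of those called higher after scaling to the same sum). Of the NH4Cl calls named here, the block-free model kept that of PDP2 with TGF-β present and lost the others. Of 18 genes of pyruvate oxidation and gluconeogenesis 14 were tested. With NH4Cl 3 (21.4%) were higher against control and 6 (42.9%) with TGF-β present, where 7.42% and 10.3% of all genes were higher, and 0 were lower in limma (8 and 9 at an unadjusted p under 0.05 in either direction), with medians of 0.11 and 0.13. PDP2, a phosphatase that switches pyruvate dehydrogenase on, had FPKM of 3.06, 2.69 and 3.14 in control, 2.57, 2.505 and 3.32 with TGF-β, 4.47, 4.38 and 4.67 with NH4Cl and 4.04, 4.54 and 4.85 in the combined group. It differed by 0.48 ± 0.067 (adjusted p 0.00211) against control and 0.53 ± 0.067 (adjusted p 0.000982) with TGF-β present, and groups with and without NH4Cl did not overlap. MPC1, a subunit of the mitochondrial pyruvate carrier, had FPKM of 9.55, 9.19 and 12.7 in control, 10.5, 10.7 and 11.5 with TGF-β, 13.7, 15.01 and 14.7 with NH4Cl and 13.8, 13.9 and 16.2 in the combined group. It differed by 0.44 ± 0.072 (adjusted p 0.00418) against control and 0.39 ± 0.072 (adjusted p 0.00561) with TGF-β present, also without overlap. PC, pyruvate carboxylase, differed by 0.25 ± 0.060 (adjusted p 0.0224) against control and 0.25 ± 0.060 (adjusted p 0.0197) with TGF-β present, calls lost against control without control replicate 2 or 3 or NH4Cl replicate 1 or 2 (0.20 to 0.28, adjusted p 0.0538 to 0.106) and with TGF-β present without TGF-β replicate 1 or 2 or NH4Cl with TGF-β replicate 2 or 3 (0.20 to 0.26, adjusted p 0.0531 to 0.0816). With replicates 1 and 2 only neither was called (adjusted p 0.0658 and 0.0568), and without the filter on FPKM the call against control was lost. In replicate 3, 5 of the 14 were higher and 4 lower, 64.3% called. DLAT, a subunit of pyruvate dehydrogenase, differed by -0.43 ± 0.029 (adjusted p 1.56e-06), G6PC3, a glucose 6-phosphatase, by -0.34 ± 0.040 (adjusted p 5.44e-05) and PCK2, the mitochondrial carboxykinase, by 0.40 ± 0.068 (adjusted p 0.000625).

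Of the 7 genes of the pentose phosphate pathway, 2 were higher and 1 lower with NH4Cl against control (42.9% called), 1 higher and 1 lower with TGF-β present (28.6%), and 2 higher and 4 lower in replicate 3 (85.7%). TKT, transketolase, was higher by 0.17 ± 0.030 (adjusted p 0.00641) against control and 0.20 ± 0.030 (adjusted p 0.00222) with TGF-β present. TALDO1, transaldolase, was lower by -0.15 ± 0.033 (adjusted p 0.0176) against control, a call lost without control replicate 1, 2 or 3 or NH4Cl replicate 1 or 2 (-0.15 to -0.13, adjusted p 0.0602 to 0.0753). With TGF-β present TALDO1 was not called (-0.079, adjusted p 0.120). PGLS, the lactonase, was higher by 0.18 ± 0.047 (adjusted p 0.0346) against control, a call lost without control replicate 1, 2 or 3, TGF-β replicate 1 or NH4Cl replicate 1, 2 or 3 (0.14 to 0.20, adjusted p 0.0508 to 0.156), with no filter on FPKM, with only the groups compared and with replicates 1 and 2 only (adjusted p 0.0548). PGLS was not called with TGF-β present (0.14, adjusted p 0.0594). In replicate 3 RPIA, an isomerase, differed by -0.37 ± 0.029 (adjusted p 3.47e-06) and TKT by 0.29 ± 0.023 (adjusted p 3.81e-06).

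Of 5 genes of glucose sensing, 3 were higher and 1 lower in replicate 3, 80% called. TXNIP, an inhibitor of glucose uptake, was 38.7 to 45.5 FPKM in replicates 1 and 2 and 94.9 to 125 FPKM in replicate 3, a difference of 1.33 ± 0.050 (adjusted p 5.23e-08). ARRDC4, its relative, differed by 0.55 ± 0.039 (adjusted p 2.17e-06). MLXIPL encodes ChREBP, the glucose-responsive factor known to drive PKLR in liver, and had FPKM of 8.81, 8.85 and 10.7 in control, 8.87, 8.70 and 12.5 with TGF-β, 11.2, 12.1 and 13.9 with NH4Cl and 11.99, 11.3 and 14.2 in the combined group. It was the 1 gene of the 5 (20%) called with NH4Cl, by 0.36 ± 0.057 (adjusted p 0.00366) against control and 0.30 ± 0.057 (adjusted p 0.00639) with TGF-β present, and differed in replicate 3 by 0.30 ± 0.043 (adjusted p 0.000186).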
